A study of Sus scrofa with 36 samples.

Results

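Collagen genes were read in the adrenal glands of 36 pigs. The array named 36 genes with a symbol of the form COL, a number, A and a number, on 88 of its 60305 probes. For each gene 1 probe was used, the one with the highest mean log2 value over the 36 arrays of the authors' table, and 31 genes had a probe there, of 11274 genes with a symbol on the array. All 31 passed the filter on dim probes, and they comprised 9 fibrillar collagens, 4 basement membrane collagens and 18 others. The remaining 5 genes (COL2A1, COL4A4, COL9A2, COL13A1 and COL28A1) had no probe in the authors' table and so were no members. COL29A1 is the older symbol of COL6A5 and is written here as on the array.

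The pigs were castrated males of 3 breeds, Creole, Large White and the F1 Large White x Creole cross, with 12 pigs per breed. In each breed 6 pigs were slaughtered at 24 °C (thermoneutral, TN) and 6 after 4 or 5 days of heat (heat stress, HS). The heat was 32 °C in the design text and 30 °C in the sample labels. Each pig had 1 array, and RNA came from the powdered whole gland. TN pigs were slaughtered before HS pigs, so day of slaughter and temperature cannot be told apart. Each breed came from 3 sets of 4 littermates, and each group of 6 filled 2 pens, but the labels tie no pig to its litter or pen. The tests treat the pigs as independent, so breed differences rest on few litters. Replicate numbers only name pigs, in the order of the samples.

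Collagens are proteins of 3 chains wound into a helix, each a run of Gly-X-Y repeats opened by a glycine. Type I, III and V collagens form the striated fibrils of capsules and septa, type IV forms the meshwork of basement membranes around vessels and epithelia, type VI forms beaded filaments, and types XII, XIV and XXI sit on the fibril surface. The adrenal gland is wrapped in a fibrous capsule and is densely supplied with sinusoidal vessels, and both are sources of collagen.

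Arrays were alike in quality. Each array had 42436 to 48060 probes with signal clear of the local background, pairs of arrays correlated at 0.98 to 0.996 over the tested probes, and no member's probe was saturated on any array. Fibroblast markers (7 of 8), capsule markers (4 of 6), smooth muscle and pericyte markers (9 of 9) and endothelial markers (9 of 10) had a tested probe. Of the capsule list GLI1 and TCF21 were not measured. In whole-gland RNA, fewer cells of a type and less RNA per cell cannot be told apart. Of the 31 members, 26 were well above background on all 36 arrays. The dim ones were COL9A1 on 33 arrays, COL11A1 on 31, COL19A1 on 27, COL11A2 on 24 and COL22A1 on 18, and differences in these rest on signals near background.

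The triple helix could be read in the probes themselves. A search for a glycine codon (GGN) followed by a pair of other codons, repeated over the whole probe in 1 frame with at least 6 glycine codons and no stop, found it in 6.82% of the 88 collagen probes as printed (6 probes) and in 2.27% on the opposite strand (2 probes), against 0.0083% and 0.00498% of the other 60217 probes. The probes below, from the array's design and written 5′ to 3′, are shown because they carry that repeat and because the breed results of COL21A1 and COL4A1 involve them. Capitals mark the glycine codons, or for the last pair the letters complementary to them.
COL21A1: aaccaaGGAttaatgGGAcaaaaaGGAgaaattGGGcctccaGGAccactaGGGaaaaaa
COL4A1: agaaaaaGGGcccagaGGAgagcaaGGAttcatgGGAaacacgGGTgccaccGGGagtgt
COL1A2: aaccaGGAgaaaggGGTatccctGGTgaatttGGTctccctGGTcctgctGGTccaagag
COL11A2: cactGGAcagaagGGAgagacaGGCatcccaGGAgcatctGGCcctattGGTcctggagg
COL11A1: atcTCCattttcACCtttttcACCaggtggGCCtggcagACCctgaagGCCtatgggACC
COL9A1: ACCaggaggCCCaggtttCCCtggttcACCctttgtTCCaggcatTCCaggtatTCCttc

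The letters of the COL11A1 and COL9A1 probes spelled the repeat on the opposite strand, and each was the gene's single probe. These genes were also 2 of the 5 dim members. The labelled cRNA is complementary to messenger RNA and pairs with probes of the coding strand. Values of COL11A1 and COL9A1 are therefore given as those of these probes.

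The main question of the study was the response to heat, and no collagen passed its test. HS and TN pigs were compared over all breeds with limma, breed as covariate and Benjamini-Hochberg adjusted p-values over 45943 probes, of which 0.886% were called (adjusted p under 0.05). Of the 31 collagens 0 were called, and 1 (COL5A3) passed an unadjusted p of 0.05, against 13.4% of all probes. The collagens were spread around 0, with 15 higher and 16 lower in HS pigs and a median log2 difference of -0.0048, against 4.7e-06 over all tested probes.

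The 3 members with the largest sizes under heat were fibrillar, but COL6A3 (-0.149) and COL8A2 (0.144), of the other class, were close in size. COL1A1, a chain of type I collagen, ranged from 14.04 to 15.43 (log2 intensity) in the 18 TN pigs with a median of 14.72, and from 13.67 to 15.14 in the 18 HS pigs with a median of 14.61. The HS minus TN difference was -0.17 (95% interval -0.43 to 0.09, limma adjusted p = 0.61). The ranges overlapped widely, and 8 of 18 HS pigs lay above the TN mean of their own breed. COL5A3, a type V chain, differed by -0.17 (interval -0.33 to -0.01, adjusted p = 0.32), and COL1A2, the partner chain of COL1A1, by -0.15 (interval -0.44 to 0.13, adjusted p = 0.70).

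Type IV chains lay near 0. COL4A1 and COL4A2, the chains that pair in most basement membranes and whose genes lie side by side at chr11:76858332-76997409 and chr11:76996885-77161617 (Sscrofa11.1), differed by -0.0048 (interval -0.16 to 0.15) and 0.02 (interval -0.17 to 0.21). COL18A1, the source of endostatin, differed by 0.09 (interval -0.07 to 0.25), and COL15A1, the other multiplexin, by -0.02 (interval -0.22 to 0.18). The class medians were -0.03 for fibrillar, 0.0066 for basement membrane and 0.02 for other collagens.

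Heat was next examined within each breed. In Creole, Large White and cross pigs 0, 0 and 0 collagens were called, against 0%, 0.0109% and 0% of all probes, and the limma test of the breed by temperature interaction called 0 collagens and 0% of probes. At an unadjusted p under 0.05 the interaction held 4 collagens and 4.21% of all probes. The direction of the type I and III chains differed between breeds in the means: COL1A1 was -0.31 (SE 0.21) in Creole, -0.48 (SE 0.21) in Large White and 0.27 (SE 0.21) in the cross. Its interaction had an unadjusted p of 0.040 and an adjusted p of 0.98 with limma, so a difference in heat response between breeds was not shown.

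**Figure D1:**
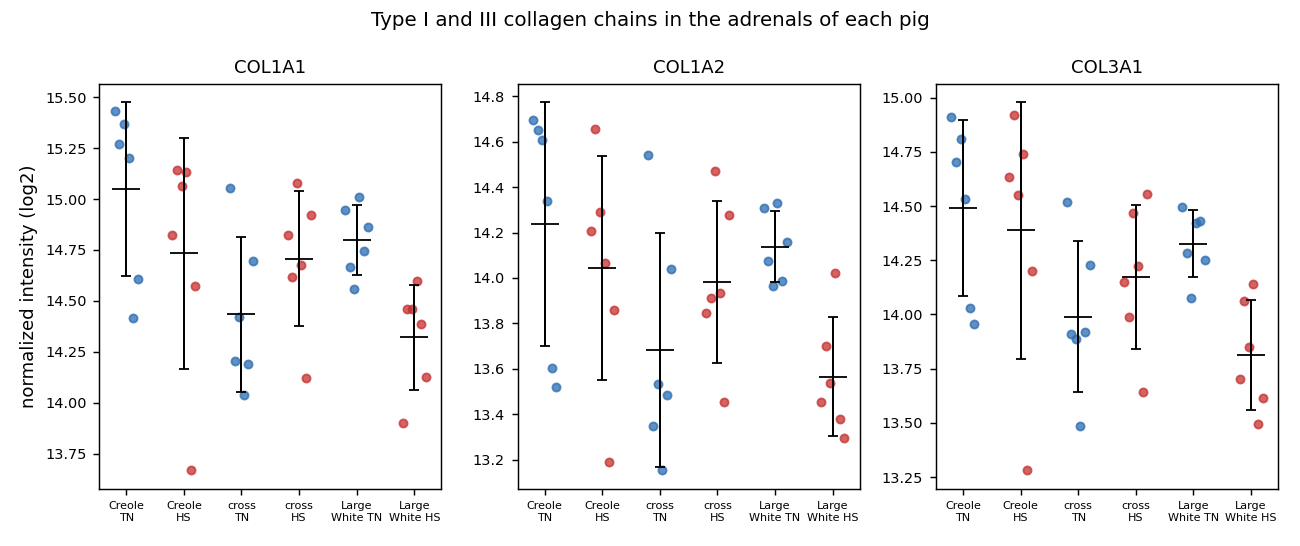
Normalized log2 intensity of COL1A1, COL1A2 and COL3A1 in each pig (points, 6 per group) with group means and SD (bars), TN in blue and HS in red. The 6 Large White HS pigs lie lower than the Large White TN mean in all 3 panels, while the cross HS mean lies above the cross TN mean, and no within-breed difference was called.

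The type I and III chains of the HS Large White pigs sat low against their TN pigs. In COL1A1 0 of 6 HS Large White pigs lay above their breed's TN mean, against 5 of 6 cross pigs and 3 of 6 Creole pigs. In Large White pigs 21 of 26 other matrix genes (median -0.11) and 6 of 6 chromaffin markers (median -0.26) were also negative. So were 8 of 8 adrenal cortex markers (median -0.15) and 4 of 4 red blood cell markers (median -0.29). By contrast 4 of 7 fibroblast (median 0.07), 3 of 4 capsule (median 0.05) and 6 of 9 smooth muscle and pericyte markers (median 0.03) were positive. In each of these lists 0 genes were called, and their part was not tested. The HS minus TN difference in Large White pigs was -0.57 for COL1A2 (interval -1.03 to -0.11, limma adjusted p = 0.75) and -0.51 for COL3A1 (interval -0.93 to -0.09, adjusted p = 0.75). Neither passed the adjusted threshold. In the cross 28 of 31 collagens had positive HS minus TN differences with a median of 0.14, and 0 of them were called. Over all probes 23248 of 45943 were positive, with a median of 0.0021, and in a list of other matrix genes 24 of 26 were positive, with a median of 0.18. In the same pigs 6 of 6 chromaffin markers (median -0.11) and 7 of 8 adrenal cortex markers (median -0.11) were negative, and 5 of 7 fibroblast markers were positive (median 0.07), with 0 called in each list. The part of these cell types was not tested. The medians were -0.04 in Creole and -0.07 in Large White pigs. Several collagens varied together among pigs, so the 28 are not independent.

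Breed separated some collagens where temperature did not. The limma F test of breed called 4 of 31 collagens (COL21A1, COL6A1, COL5A1 and COL4A1), against 10.4% of all probes. Of these calls that of COL4A1 was lost in 8 of 20 processing alternatives and in 6 of 36 fits that left out 1 pig, and those of COL5A1 and COL6A1 in 2 of 20 each. Large White and Creole pigs differed in 5 of 31 collagens, against 11.3% of all probes. Of these 4 were lower in Large White, where 5.38% of all probes were called lower, and 1 was higher, where 5.89% were. The share of collagens called was near that of all probes. The median difference over the 31 collagens was -0.06, with 21 lower, against 6.2e-05 over all probes.

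COL21A1, a fibril-associated collagen at chr7:29414851-29609039 (Sscrofa11.1), had the largest breed difference among the collagens. It ranged from 9.29 to 10.03 with a median of 9.61 in the 12 Creole pigs and from 8.51 to 8.99 with a median of 8.83 in the 12 Large White pigs. The groups did not overlap at all. Large White was lower by -0.88 (SE 0.12, interval -1.12 to -0.64), a 1.84-fold difference, with an adjusted p of 3.3e-06. The difference was -0.83 (SE 0.16) at 24 °C and -0.93 (SE 0.16) under heat, with adjusted p of 0.0019 and 0.00090. At 24 °C 2 collagens were called, COL21A1 and COL6A1, both lower, against 3.48% of all probes (2.02% higher and 1.46% lower). Under heat 3 were called, the same pair and COL5A1, all lower, against 2.8% of all probes (1.37% higher and 1.43% lower). The call of COL6A1 at 24 °C and that of COL5A1 under heat were each lost in 8 of 19 processing alternatives, and that of COL6A1 under heat in 3. In 1 more alternative at each temperature, that of its second probe, the COL6A1 difference turned sign and its call was lost too.

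The cross lay between the parents for COL21A1. Its pigs ranged from 8.35 to 9.74 with a median of 9.34. The cross was higher than Large White by 0.50 (SE 0.12, adjusted p = 0.023), the single collagen among 31 called there against 1.37% of all probes (0.673% higher and 0.694% lower). This call was lost in 3 of 20 processing alternatives. Its difference from Creole was -0.38 (adjusted p = 0.057) and was not called. Its difference from the mean of both parents was 0.06, not called.

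COL6A1, a chain of the beaded filaments of type VI collagen, followed. Creole pigs ranged from 7.97 to 8.80 with a median of 8.25 and Large White pigs from 7.70 to 8.14 with a median of 7.84. The ranges overlapped in part, and all 12 Large White pigs lay below the Creole mean at their own temperature. Large White was lower by -0.46 (SE 0.08, adjusted p = 0.00023), and the cross was lower than Creole by -0.38 (SE 0.08, adjusted p = 0.0063), 1 of 2 collagens called there, both lower, against 3.88% of all probes (2.22% higher and 1.66% lower). This last call was lost in 5 of 20 processing alternatives, with -0.08 for the second probe.

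COL5A1, a type V chain that starts and limits fibrils (chr1:273934219-274083264, Sscrofa11.1), differed in the same direction. It ranged from 9.21 to 9.81 with a median of 9.55 in Creole and from 8.90 to 9.46 with a median of 9.16 in Large White pigs, which overlapped. Large White was lower by -0.38 (SE 0.08, adjusted p = 0.00097), and the cross was lower than Creole by -0.27 (SE 0.08, adjusted p = 0.043). The second call was lost in 7 of 20 processing alternatives and in 14 of 36 fits that left out 1 pig.

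COL8A2, a short-chain collagen, overlapped widely between breeds. It ranged from 9.38 to 10.53 with a median of 10.02 in Creole and from 9.12 to 10.18 with a median of 9.52 in Large White pigs. Large White was lower by -0.44 (SE 0.13, adjusted p = 0.027), while the breed F test did not call it (adjusted p = 0.063). The call was lost in 4 of 20 processing alternatives and in 4 of 36 fits that left out 1 pig.

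COL4A1 moved the other way. It ranged from 10.13 to 11.11 with a median of 10.63 in Creole and from 10.56 to 11.23 with a median of 10.98 in Large White pigs. Large White was higher by 0.28 (SE 0.09, adjusted p = 0.039), the single collagen called higher. The call was lost in 14 of 36 fits that left out 1 pig and in 7 of 20 processing alternatives, and 1 more turned its sign. COL4A2 was not called, with a difference of -0.03 (interval -0.27 to 0.20), so the neighbouring genes did not share a called difference.

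**Figure D2:**
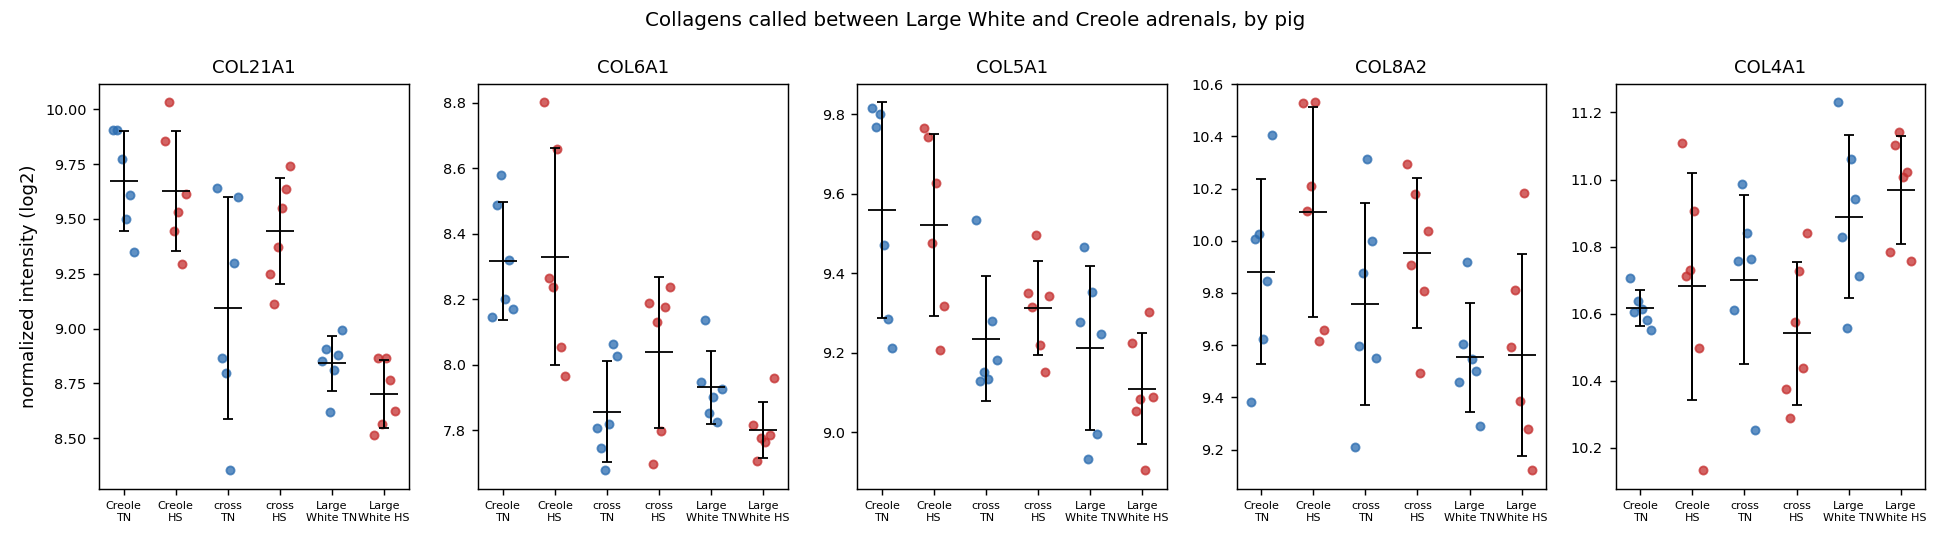
Normalized log2 intensity of the 5 collagens called between Large White and Creole pigs, by pig (points, 6 per group), with group means and SD (bars), TN in blue and HS in red. COL21A1 of the Large White pigs lies between 8.51 and 8.99, below all Creole pigs, and the other 4 genes overlap between breeds.

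Other probes of these genes gave the limits of each call. For COL21A1 all 3 tested probes were called lower in Large White, at -0.88, -1.25 and -0.42, the last being the glycine repeat probe printed above. COL5A1 was called by 2 of its 3 tested probes, at -0.38 and -0.33, and the remaining probe gave -0.22 (adjusted p = 0.059). The second probe of COL6A1 gave 0.03 (adjusted p = 0.90), and the second probe of COL4A1, the glycine repeat probe above, gave -0.17 (adjusted p = 0.30), opposite in sign to the first. Breed differences of COL6A1 and COL4A1 thus rest on 1 probe each, and COL8A2 had a single probe.

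COL14A1, a fibril-associated collagen, had 12 tested probes, and its brightest probe was not called between breeds (-0.22, adjusted p = 0.20). Of the 12 probes 3 were called lower in Large White, at -0.59 to -0.54 (adjusted p 0.019 to 0.028), while the other 9 gave -0.28 to -0.12 and were not called. Across pigs, with group means removed, the 3 probes correlated with each other at 0.93 to 0.99, the 9 with each other at 0.44 to 0.96, and the 3 with the 9 at 0.38 to 0.75, which overlaps the range among the 9. The split is that of called against not called probes, with no test of their difference, and 2 of the 3 called probes share 56 of their 60 letters. Pairs with identical letters (of COL14A1, COL6A2 and COL6A3) differed in mean level by 0.05, -0.11 and 0.28. Over the arrays these differences between 2 probes had SDs of 0.07, 0.12 and 0.09. The pairs correlated at 0.95, 0.77 and 0.97.

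**Figure D3:**
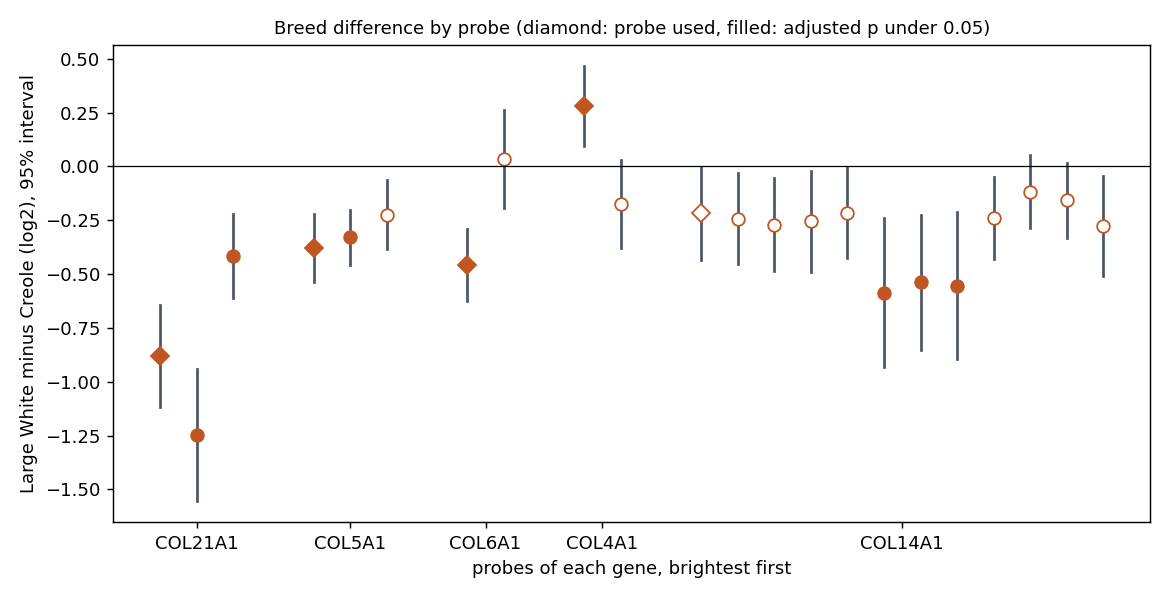
Large White minus Creole log2 difference with 95% interval for each tested probe of 5 collagens, brightest first (diamond: the probe used for the gene; filled: adjusted p under 0.05). All 3 COL21A1 probes lie below 0, the second probes of COL6A1 and COL4A1 do not share the called difference, and 3 of 12 COL14A1 probes are called.

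The type I and III chains were lower in Large White pigs in the means but were not called. COL1A1 differed by -0.33 (interval -0.65 to -0.01, adjusted p = 0.19) and COL3A1, the main chain of reticular fibres, by -0.37 (interval -0.68 to -0.06, adjusted p = 0.12). All 12 Large White pigs lay below the Creole mean of their temperature for COL1A1 and 11 of 12 for COL3A1. Creole HS replicate 5 had the lowest COL1A1 (13.67) and COL3A1 (13.28) of the 36 pigs. Without it COL1A1 differed by -0.44 (adjusted p = 0.037) and COL3A1 by -0.47 (adjusted p = 0.020), so these calls turned on 1 pig. Without slide 5, which holds this pig, both were called too, at -0.51 (adjusted p = 0.027) and -0.55 (adjusted p = 0.013). In 19 of the 20 processing alternatives each stayed uncalled. Over the 20 the difference ran from -0.51 to -0.14 for COL1A1 and from -0.55 to -0.21 for COL3A1. COL1A2 differed by -0.29 (adjusted p = 0.32). It was called in none of the 20 alternatives and in none of the 36 fits that left out 1 pig.

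Between classes the breed medians were -0.13 for the 9 fibrillar collagens (1 called), 0.06 for the 4 basement membrane collagens (1 called) and -0.07 for the 18 others (3 called). Of the 4 basement membrane collagens 2 were higher and 2 lower in Large White. The called one, COL4A1, turned to -0.17 with its second probe. Counting COL15A1 and COL18A1 with the basement membrane moved its median to -0.02. COL5A2, the partner chain of COL5A1, differed by -0.13 and COL6A2 and COL6A3, the partners of COL6A1, by -0.15 and -0.06, none called.

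Against the mean of Creole and Large White pigs 0 of 31 collagens were called, where 0.409% of all probes were, and 3 collagens passed an unadjusted p of 0.05, where 11% of all probes did. COL6A3 had the largest size, at -0.31 (interval -0.54 to -0.08, adjusted p = 0.26), followed by COL3A1 at -0.17 (interval -0.44 to 0.10) and COL4A1 at -0.17. The median over the 31 collagens was -0.04.

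**Figure D4:**
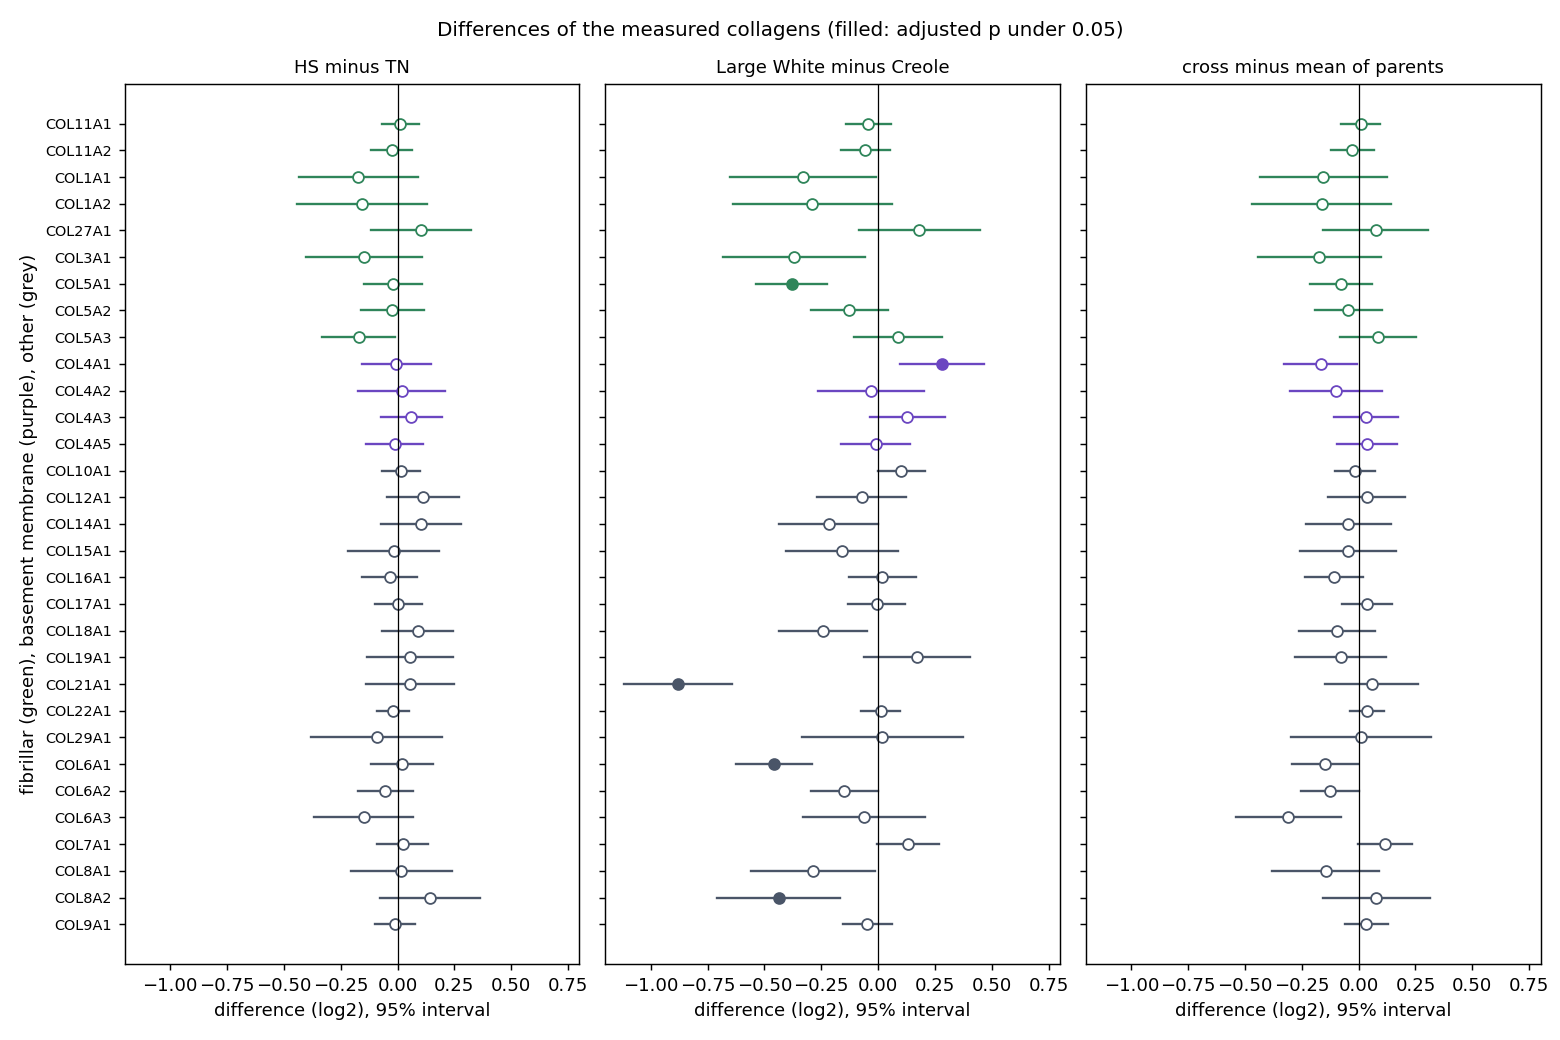
Log2 differences of the 31 collagens with 95% intervals for HS minus TN, Large White minus Creole and cross minus mean of parents (green fibrillar, purple basement membrane, grey other; filled points adjusted p under 0.05). No point is filled for HS minus TN or for the cross, and 5 are filled for Large White minus Creole.

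Slides were checked as batches, since each of 5 slides held both temperatures. Slide 1 held 4 arrays, with Large White pigs TN alone and Creole and cross pigs HS alone, so breed and temperature cannot be told apart there, and values are given for slides 2 to 5. They are plain differences of means on a slide, not adjusted for the other factor. Large White minus Creole was negative on these 4 slides for COL21A1, from -1.38 to -0.61, for COL6A1, from -0.70 to -0.12, and for COL5A1, from -0.70 to -0.08. COL4A1 was between -0.0035 and 0.44, and COL1A1 between -1.05 and 0.21. The median HS minus TN difference of the collagens ran from -0.05 to 0.07.

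Some of the collagens varied together with COL1A1 among pigs. With the mean of each group removed, COL1A1 was set against each of the 30 other collagens and against the mean of each of 10 marker lists over 36 pigs, 40 relations in all, with 100000 permutations of the pigs within groups. Of the 30 collagens 7 had an adjusted p under 0.05 for Pearson's r, and all 7 correlated above 0. COL1A1 was not set against all probes, so no share over the array stands beside the 7. Such correlation is thus not shown to be particular to collagens. COL3A1 (r = 0.93, rho = 0.90) and COL1A2 (r = 0.92, rho = 0.93) were closest, each with a permutation p of 1e-05, the smallest these permutations can give, and an adjusted p of 0.00013 for r. Leaving out the 2 pigs farthest in COL1A1 left r at 0.89 and 0.90. Within the 4 slides with 8 arrays r lay between 0.76 and 0.97 for COL3A1 and between 0.89 and 0.97 for COL1A2, and slide 1 held too few arrays.

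Of the type V and VI chains set against COL1A1, COL5A2, COL5A1 and COL6A3 passed, while COL5A3 (r = 0.02), COL6A1 (r = 0.24) and COL6A2 (r = 0.36) did not, with permutation adjusted p of 0.99, 0.61 and 0.12. The fibrillar COL11A1, COL11A2 and COL27A1 were at -0.15, -0.10 and 0.17 and did not pass either. COL5A2 correlated at r = 0.84 (rho = 0.78, permutation p = 1e-05, adjusted p = 0.00013), and at 0.53 to 0.95 within slides. COL6A3 correlated at 0.67 (rho = 0.61, permutation p = 3e-05, adjusted p = 0.00030), and at 0.36 to 0.85 within slides. COL5A1 correlated at 0.65 (rho = 0.60, permutation p = 0.00019, adjusted p = 0.0015), and at 0.52 to 0.73 within slides.

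The last pair of the 7 was weaker, and neither passed for rho. COL21A1 reached r = 0.52 (rho = 0.50, permutation adjusted p = 0.028 for r and 0.055 for rho), with r within slides from 0.18 to 0.86. COL4A5 reached r = 0.47 (rho = 0.43, permutation adjusted p = 0.035 for r and 0.086 for rho), and 0.34 without the 2 farthest pigs. COL4A1 and COL4A2 did not pass (r = 0.29 and 0.33, permutation adjusted p = 0.36 each), nor did COL18A1 and COL15A1 at -0.14 and -0.16. The fibroblast list correlated at 0.41 (rho = 0.39, permutation adjusted p = 0.083) and did not pass, and the adipocyte list was at -0.05. The part of fibroblast number in these relations was not tested. All arrays share 1 normalization.

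**Figure D5:**
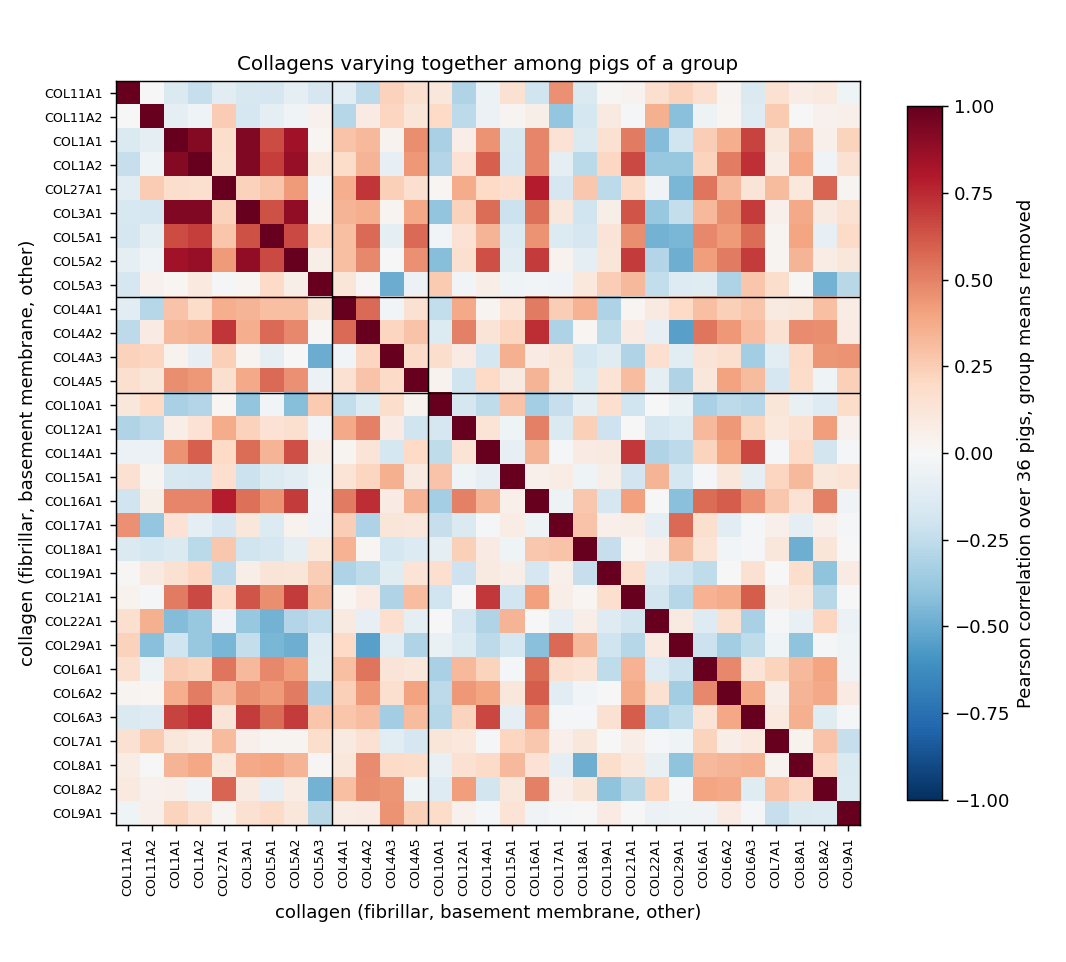
Pearson correlation between the 31 collagens over 36 pigs after removing each group's mean (red positive, blue negative), ordered fibrillar, basement membrane, other, with lines between the classes. COL1A1, COL1A2, COL3A1 and COL5A2 form the darkest block, at 0.84 to 0.93.

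Enzymes, receptors and partners of the collagens were described from lists of matrix genes, with 1 probe per gene. Under heat 0 genes were called in any of the 6 lists, which held 100 tested genes between them, against 0.886% of all probes. Between Large White and Creole, where 11.3% of all probes were called (5.89% higher and 5.38% lower), the lists held called genes in both directions. Of 21 tested genes of collagen synthesis and crosslinking 3 were called, PCOLCE2 (0.34), which aids procollagen cleavage, and LOXL2 (-0.41) and P4HA2 (-0.23), which crosslink and hydroxylate collagen. Of 17 degradation genes 2 were called, the inhibitors TIMP1 (0.32) and TIMP2 (-0.20), and of 7 collagen receptors DDR2 (0.34) and ITGA2 (0.21).

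Against the same 11.3% of all probes, basement membrane partners had 5 of 9 called, 3 higher and 2 lower, with the laminins LAMC1 at 0.47, LAMB2 at 0.42 and LAMB1 at -0.31. Other matrix genes had 5 of 26 called, with TNC (tenascin) at 0.81 (adjusted p = 0.00027) the largest among the called, followed by MFAP5 (-0.43) and FN1, fibronectin (-0.43). Of 20 genes of TGF-beta and fibrosis control 2 were called lower, LTBP2 (-0.78, adjusted p = 0.00012), a microfibril protein, and TGFB2 (-0.31, adjusted p = 0.00090). The list medians lay between -0.07 and 0.12.

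Markers of several cell types differed between Large White and Creole pigs, where 11.3% of all probes were called (5.89% higher and 5.38% lower). Of 7 adipocyte markers 4 were called lower in Large White and 1 higher, with ADIPOQ at -1.62, FABP4 at -1.33 and PLIN1 at -0.90 against LPL at 0.91, and the list's mean level ran from 8.38 to 9.63 in Creole and from 8.37 to 8.88 in Large White pigs. Of 6 chromaffin markers 3 were called higher, with the mean level from 13.07 to 13.83 in Creole and from 12.99 to 14.13 in Large White pigs. TH and DBH were not measured. Of 7 fibroblast markers 1 was called, lower, with the mean level from 9.50 to 9.94 in Creole and from 9.39 to 9.83 in Large White pigs. Of 9 endothelial markers 2 were called higher, KDR (0.68) and PLVAP (0.38), with the mean level from 11.31 to 11.65 in Creole and from 11.41 to 11.71 in Large White pigs. Of 9 smooth muscle and pericyte markers 1 was called higher, RGS5 (0.84), with the mean level from 11.46 to 11.84 in Creole and from 11.65 to 12.08 in Large White pigs. Of 8 adrenal cortex markers 2 were called lower, HSD3B1 (-0.78) and STAR (-0.34), and of 10 leukocyte markers 1 was called higher, CD3D (0.59), and 1 lower, CSF1R (-0.29). Of the capsule, Schwann and glia and red blood cell lists 0 markers were called. The part of these cell types in the breed differences of the collagens was not tested.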

How the data were processed

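Per the labels and file headers, Cy3-labelled cRNA was hybridized to porcine 1-colour arrays, 1 per pig, and spot intensity was extracted with Agilent Feature Extraction 10.10.1.1. The deposited intensity values are linear and not normalized between arrays, and the authors' deposited log2 table is quantile normalized. They kept 45348 probes as expressed, by a rule that is not given in the sources used here.

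Here the median intensity was quantile normalized and log2 transformed, outlier spots were left out (95 values among tested probes), and a probe was kept if 9 or more of the 18 TN arrays, or of the 18 HS arrays, had it well above background (45943 of 60305). limma 3.58.1 in R 4.3.3 was used with an FDR of 0.05. Models held temperature and breed, or the 6 groups. The number of arrays limits the precision. Fits were run on simulated data with independent noise per probe and array. Of probes changed by 0.5 log2, 86% were recovered for HS minus TN and 84% for Large White minus Creole. The simulation held no litter, pen or slide effects, so it cannot speak to these. The study's random terms for pen, day of slaughter and kinship could not be fitted because the labels do not give them. Gene positions came from RefSeq (Sscrofa11.1).

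Members, lists and tests were chosen with earlier results of these data known. Named were all called members, the 3 largest in each of the 3 main contrasts, 12 collagens of types I, III, IV, V, VI, XV and XVIII, and the leading called genes of the lists. COL14A1 was added after its values were seen. Littermates share groups and the labels do not say which pigs they are, so p-values measure the spread between these pigs and do not account for litter.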

Additional observations from a re-analysis of the deposited data

Results flagged for a closer look

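Among the 15 named collagens, 3 of 90 groups of 6 pigs held a pig far from the others, fewer than the 4.5 that a rule which flags 1 in 20 groups gives by chance. Cross TN replicate 1 was high in COL5A1, at 9.53 against 9.13 to 9.28 in the other pigs, and in COL5A3, at 11.79 against 11.07 to 11.30. Large White TN replicate 4 was high in COL18A1, at 15.14 against 14.49 to 14.72, and without it the Large White minus Creole difference of COL18A1 moved from -0.24 to -0.28 (limma adjusted p = 0.0499) and was called. It was also called without slide 3, which holds this pig, at -0.37 (limma adjusted p = 0.025).

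The HS minus TN difference of COL14A1 had opposite signs in 2 breeds. All 6 cross HS pigs lay above the TN mean of the cross (0.39, 95% interval 0.11 to 0.67, limma adjusted p = 0.24, not called). Of the Large White HS pigs 0 of 6 lay above theirs (-0.16, interval -0.45 to 0.12). The limma interaction over breeds had an unadjusted p of 0.030 and an adjusted p of 0.98, so the difference was not shown. The direction held over its 12 probes, at 0.28 to 0.48 in the cross and -0.60 to -0.06 in Large White. These probes read the same gene in the same pigs and several share letters, so their agreement adds no replicates.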

How the results depend on the processing

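Calls for HS minus TN (pooled and within breeds), for the interaction and for cross minus mean of parents stayed at 0 under every alternative run. The median over the 31 collagens ran from -0.02 to 0.02 for HS minus TN and from -0.10 to -0.04 for Large White minus Creole. The fibrillar median ran from -0.15 to -0.02 and from -0.29 to -0.07 in these contrasts, and the basement membrane median for Large White minus Creole from -0.07 to 0.13, with a change of sign. COL21A1 and COL5A1 were called in the pooled Large White minus Creole contrast under all alternatives run. With the second brightest probe 3 collagens were called between Large White and Creole, 2 by the breed F test and 1 for cross minus Creole, COL4A1 turned to -0.17, and COL6A1 to 0.034 in the pooled contrast, 0.054 at 24 °C and 0.015 under heat. The mean of all probes gave 2 by the F test and 1 between breeds at 24 °C, and COL6A1 lost its call (-0.21). The count at 24 °C was also 1 with normexp, the 75th percentile, no filter, the eBayes trend, or without slide 2, 3 or 4. Without slide 2 or 3 the F test called 2, without slide 3 or 4 the breed contrast under heat called 1, and without slide 4 Large White minus Creole called 3. Cross minus Creole called 1 with the 75th percentile, no filter or without slide 1, 0 without slide 2, 3 or 4, and 4 without slide 5. Cross minus Large White called 0 without slide 2, 3 or 5 and 2 at an FDR of 0.1.

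Leaving out each pig gave 3 to 7 by the F test (7 without Creole HS replicate 5), 3 to 6 between Large White and Creole (3 without Creole TN replicate 6), 1 to 4 for cross minus Creole (4 without Creole HS replicate 5) and 1 to 2 for cross minus Large White (2 without Large White TN replicate 3 or cross TN replicate 3). COL4A1 lost its call in 14 of these 36 fits (without Creole TN replicates 2 to 6, Creole HS replicates 5 and 6, Large White TN replicates 1, 4 and 5, and Large White HS replicates 2 to 5, at 0.23 to 0.28) and, at 0.05 to 0.28, with slide as a fixed block, normexp, the 75th percentile, the mean of all probes and without slide 3, 4 or 5. COL8A2 lost it without slide 1, 3, 4 or 5 and without Creole HS replicate 1 or 4, Creole TN replicate 6 or Large White HS replicate 6 (each -0.39). COL5A1 lost its call for cross minus Creole in 14 fits (without Creole HS replicates 1 to 4, Creole TN replicates 1 to 3, cross HS replicates 4 and 5, and cross TN replicates 2 to 6, at -0.27 to -0.24). The causes were not tested. Single pigs were not left out in the contrasts within a breed or a temperature. No paired analysis was possible because the labels tie no pig to its litter and the replicate numbers were given in sample order. Without COL11A1 and COL9A1, a choice made after seeing the data, the collagen median was -0.0048 for HS minus TN and -0.06 for Large White minus Creole. Signal near background limits the 5 dim members.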
